A study of Mus musculus with 12 samples.

Results

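Poly(A) RNA was sequenced from ES-E14TG2a cells, a mouse embryonic stem cell line, in which eRF1 carries a dTAG degron. These were 4 of the 12 libraries of the study: treated wild-type cells, replicates A and B, and untreated wild-type cells, replicates A and B. Treated cells received 500 nM dTAG-13 for 1 h and untreated cells received nothing. All 4 libraries came from cells wild type for Gcn2 that were grown on gelatin with LIF, the GSK3 inhibitor CHIR99021 and the MEK inhibitor PD0325901. The other 8 libraries are ribosome footprints, of which the wild-type ones (2 treated, 2 untreated) are used here as a second readout. The labels call the replicates biological and do not say whether the tagged line is 1 clone.

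eRF1, the product of Etf1, recognises stop codons and, with the GTPase eRF3 (Gspt1), releases the finished protein from the ribosome. The compound dTAG-13 links a tagged protein to a ubiquitin ligase, so that the protein is degraded while its mRNA is left in place. Stop codons are also where nonsense-mediated decay, which removes mRNAs that end translation too early, takes its cue from the release factors. Short-lived mRNAs such as those of immediate early genes answer signals within minutes, because they are transcribed quickly and decay quickly. The comparison asked which transcripts, coding and non-coding, differed in level within the hour. The labels name neither a vehicle control nor treated cells without the tag, so effects of the compound and of eRF1 loss cannot be told apart.

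Few transcripts differed. Of 15955 genes with enough counts, 26 passed an adjusted p of 0.05 in edgeR's quasi-likelihood test, which is 0.163% of the genes tested. Of these, 19 were higher in treated cells (0.119%) and 7 were lower (0.0439%). The risers included the matricellular growth-signal genes Ccn1 and Ccn2, the AP-1 transcription factor genes Jun and Junb, the MAP kinase feedback inhibitor gene Spry4, the Hippo pathway scaffold gene Amotl2 and the pseudogene Rps19-ps3. In all, 13 calls exceeded 1.5-fold, 9 upward and 4 downward, and 3 exceeded 2-fold, all 3 of them pseudogenes. In all 26 the CPM of the groups did not overlap, as was the case for 33.6% of the genes tested. The number of calls depended on single libraries: it was 38 without untreated replicate A, 267 without untreated replicate B, 14 without treated replicate A and 20 without treated replicate B.

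**Figure D1:**
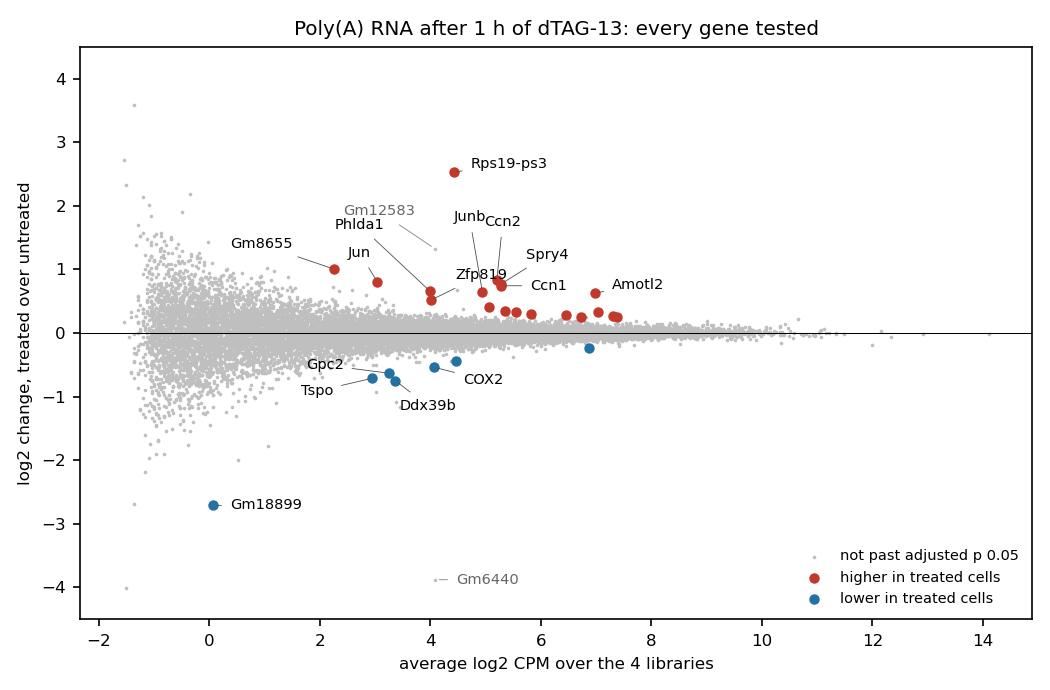
Log2 change of RNA, treated over untreated (vertical axis), against average log2 CPM over the 4 libraries (horizontal axis), 1 point per gene tested. Most genes lie close to 0, the 19 risers and 7 fallers are coloured, and the grey labels mark 2 pseudogenes with large changes that rest on 1 library each.

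The rest of the transcriptome was held within narrow limits. The median log2 change over all genes tested was −0.00092 and the median size of the change was 0.08 on the log2 scale. Among the 9796 genes whose log2 CPM averaged 3 or more, the 95% interval of the change lay within 1.5-fold for 99.2%. Over all genes tested that held for 10991 genes (68.9%), and most of the rest lay below that level.

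The libraries held 23875157 (A) and 17462458 (B) counts in treated cells, and 24256097 (A) and 22005702 (B) in untreated cells. Across the 9796 genes the SD of the log2 ratio was 0.118 between the treated replicates and 0.136 between the untreated replicates. It was 0.129 to 0.138 between a treated and an untreated library, so treated and untreated libraries differed overall by about as much as the untreated replicates did from each other. Untreated replicate A stood farthest from the others, and chi-squared per degree of freedom was 3.00 between the treated and 4.59 between the untreated replicates. Naive pluripotency markers, which define cells in this medium, summed to 7716 (A) and 7647 (B) CPM in treated cells and to 7780 (A) and 7786 (B) CPM in untreated cells. Of these 24 markers, all had counts and none was called, beside 0.163% of all genes tested. The fibroblast markers summed to 10.8 to 12.7 CPM in every library and 3 of the 15 were at 0 throughout. Other marker lists were not near absent. Primitive endoderm markers summed to 1258 to 1427 CPM, most of it from Lamc1 (719 to 845 CPM) and Sparc (408 to 443 CPM). Primed and early differentiation markers summed to 408 to 440 CPM, of which Dnmt3b gave 181 to 214 CPM and Zic2 70.1 to 83.1 CPM. Sums that rest on a few genes do not show that cells of those states were present. Two-cell-like markers summed to 241 to 258 CPM, nearly all of it from Eif1a. The Pou5f1 row itself held only 4.89 to 6.88 CPM per library, and the annotation carries further rows for near-identical copies of it, so its level is uncertain here. Counts are shares of a library, so fewer mRNAs per cell for all genes alike would not show.

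The degron acts on eRF1 protein, so counts of its mRNA do not measure its depletion. Etf1 (chromosome 18, 34902785 to 34932008 in mm10) had 407 (A) and 399 (B) CPM in treated cells, against 405 (A) and 403 (B) CPM in untreated cells. CPM are counts scaled to a common library total, with a correction for library composition. The log2 change was −0.01, with a 95% interval of −0.10 to 0.08. For its partner Gspt1 the change was 0.01 (−0.08 to 0.10).

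Immediate early genes gave the largest group of calls. These are genes switched on without new protein synthesis when growth factors, stress or mechanical signals reach the cell. Of 47 genes in the list 40 were tested, 5 were called higher in treated cells and none lower, beside 0.119% of all genes called higher. The list's median log2 change was 0.13, against −0.00092 over all genes. At an unadjusted p under 0.05, a level that 5.13% of all genes tested passed, 13 members lay above 0 and 3 below. This list and those below were chosen with earlier results of these data known. Their counts are therefore a description and not a test.

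Ccn2 (chromosome 10, 24595442 to 24598683), which encodes a secreted matricellular protein, had 44.7 (A) and 50.7 (B) CPM in treated cells, against 27.4 (A) and 25.9 (B) CPM in untreated cells. Both treated libraries were well above both untreated ones. The rise was 1.78-fold, a log2 change of 0.84 (SE 0.079, adjusted p = 3.34e-11 by edgeR). Its relative Ccn1, which also encodes a matrix-associated signalling protein, had 46.5 (A) and 51.6 (B) CPM in treated cells, against 29.7 (A) and 28.6 (B) CPM in untreated cells. The groups were again apart, and the log2 change was 0.74 (SE 0.076, adjusted p = 3.86e-10).

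Jun, the founding subunit of the AP-1 transcription factor, was a low-level transcript with 10.8 (A) and 10.1 (B) CPM in treated cells, against 6.21 (A) and 5.78 (B) CPM in untreated cells. It rose by 0.80 on the log2 scale (SE 0.151, adjusted p = 0.00336). The call was lost without treated replicate A and in DESeq2 (adjusted p = 0.178), while the change stayed between 0.75 and 0.86 with any library left out. Junb, which forms AP-1 with Fos family proteins, had 37.9 (A) and 37.5 (B) CPM in treated cells, against 22.9 (A) and 25.4 (B) CPM in untreated cells. Its log2 change was 0.64 (SE 0.083, adjusted p = 5.43e-07), and it was called whichever library was left out.

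Myc, the transcription factor gene that drives growth and ribosome production, had 52.1 (A) and 52.9 (B) CPM in treated cells, against 39.4 (A) and 43.8 (B) CPM in untreated cells. The groups did not overlap, the log2 change was 0.34 (SE 0.071, adjusted p = 0.0148), and the call held only without untreated replicate B among the 4 fits that leave out a library. It was the single call among 26 tested genes of the MYC network list, whose median was −0.01, beside 0.119% of all genes called higher.

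Other immediate early genes moved less or were too low to judge. Fos, the classical partner of Jun, had 0.63 (A) and 1.15 (B) CPM in treated cells, against 0.41 (A) and 0.68 (B) CPM in untreated cells, and its log2 change of 0.67 had an interval of −0.39 to 1.72. Egr1 was below 0.8 CPM in every library (log2 change 0.28, adjusted p = 0.993). Ier2, a short nuclear protein gene at 197 (A) and 198 (B) CPM in treated cells against 181 (A) and 174 (B) CPM in untreated cells, had a log2 change of 0.16 (adjusted p = 0.484). The serum response factor gene Srf (0.20), the zinc finger factor gene Klf6 (0.22) and the polo-like kinase gene Plk2 (0.23) also lay above 0, with adjusted p of 0.273, 0.299 and 0.158. These last 3 were each called without untreated replicate B, and Ier2 without untreated replicate A. In the other direction Cebpd was at 0.50 (A) and 0.46 (B) CPM in treated cells, against 1.07 (A) and 1.59 (B) CPM in untreated cells, and was not called (adjusted p = 0.607).

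**Figure D2:**
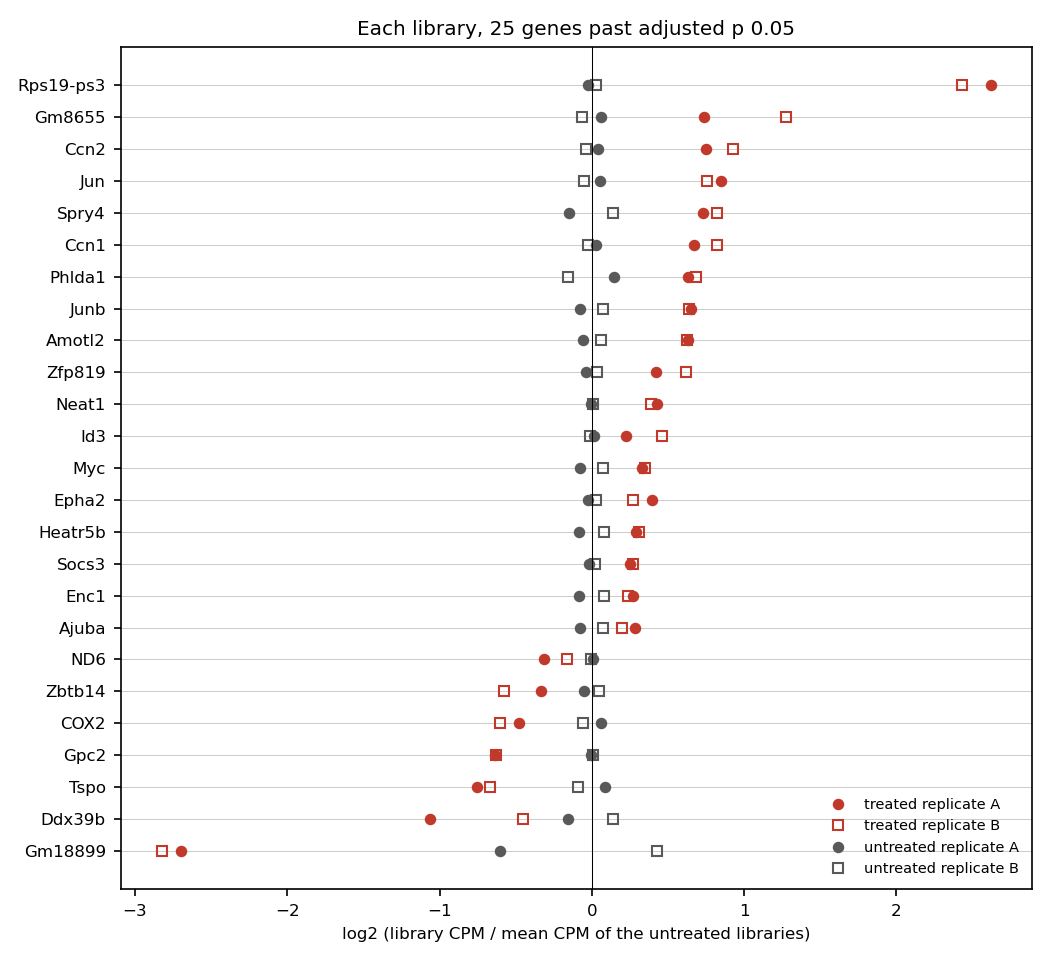
Each library's CPM over the mean CPM of the 2 untreated libraries, on a log2 scale, for 25 of the 26 called genes, with treated libraries in red and untreated ones in grey (circles replicate A, squares replicate B). In each of these 25 genes the 2 treated libraries lie on the same side of both untreated ones, and Rps19-ps3 stands far to the right of the other risers.

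MAP kinase feedback genes also held calls. These genes encode inhibitors that growth factor signalling through ERK induces to limit itself, and the medium of both groups held a MEK inhibitor, which blocks the kinase above ERK. Of 22 tested members, 2 were called higher and none lower, beside 0.119% of all genes called higher. The list's median log2 change was 0.11, against −0.00092 over all genes. Spry4, a Sprouty inhibitor of receptor tyrosine kinase signalling, had 48.1 (A) and 51.2 (B) CPM in treated cells, against 26.1 (A) and 31.9 (B) CPM in untreated cells. The treated libraries were alike and clearly higher (log2 change 0.78, SE 0.080, adjusted p = 1.80e-09). Phlda1, which encodes a pleckstrin-homology-like protein induced by growth signals, had 19.3 (A) and 20.03 (B) CPM in treated cells, against 13.7 (A) and 11.2 (B) CPM in untreated cells. Its log2 change was 0.65 (SE 0.117, adjusted p = 0.00141), and DESeq2 gave an adjusted p of 0.0689.

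Another 3 members passed only an unadjusted p under 0.05, a level that 5.13% of all genes tested passed. Dusp6, the cytoplasmic ERK phosphatase gene, had 9.33 (A) and 10.1 (B) CPM in treated cells, against 7.08 (A) and 7.11 (B) CPM in untreated cells (log2 change 0.45, adjusted p = 0.617). Spry2, the most abundant of the 3, had 108 (A) and 105 (B) CPM in treated cells, against 92.5 (A) and 97.4 (B) CPM in untreated cells (0.17, adjusted p = 0.617). Dusp5, a nuclear ERK phosphatase gene, had 2.65 to 3.64 CPM in treated cells, against 1.73 to 2.22 CPM in untreated cells (0.68, adjusted p = 0.905). No further member of the list passed even the unadjusted level. Of the 22 tested, 16 lay above 0, and 14 of the 22 intervals lay within 1.5-fold.

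Targets of YAP and TEAD held 4 calls. YAP and TAZ are coactivators that the Hippo kinases keep out of the nucleus, and TEAD proteins bring them to DNA. Of 21 tested members 4 were called higher and none lower, beside 0.119% of all genes called higher. Among the 4 were Ccn1 and Ccn2, which are also on the immediate early list. Amotl2, a junctional scaffold that binds YAP and is also its target, had 155 (A) and 154 (B) CPM in treated cells, against 95.8 (A) and 104 (B) CPM in untreated cells. Its log2 change of 0.63 (SE 0.054, adjusted p = 1.02e-12) had the smallest p of any protein-coding gene. Ajuba, a LIM-domain protein that restrains the Hippo kinases, had 187 (A) and 176 (B) CPM in treated cells, against 145 (A) and 161 (B) CPM in untreated cells (log2 change 0.24, SE 0.053, adjusted p = 0.0231). Its call was lost without untreated replicate A, treated replicate A or treated replicate B.

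The other 17 tested members of that list were not called. The median log2 change over all 21 was 0.04, and 0.13 without treated replicate B. Lats2, a Hippo kinase gene, had 7.78 (A) and 8.69 (B) CPM in treated cells, against 5.97 (A) and 6.42 (B) CPM in untreated cells (0.41, adjusted p = 0.905). The coactivator genes Yap1 (−0.01) and Wwtr1 (0.10) and the DNA-binding partner genes Tead1 (−0.02), Tead2 (0.02) and Tead4 (−0.08) were not called. Among targets at low level, Axl (0.41, SE 0.406) and F3 (−0.05, SE 0.285) could not be resolved.

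Promoter sequences from RefSeq (GRCm38.p6, the assembly of mm10), each running from 250 bases before to 50 after an annotated start, were found for 9 of the 19 risers. They were searched for the hexamer GGAATG, the core of the site that TEAD proteins bind, read on either strand. Shown are Ccn1, Amotl2 and Ajuba, the called YAP/TEAD targets with a promoter in the table, and Epha2, which like Ajuba holds the hexamer 2 times. The hexamer was present in 5 of the 9 promoters (Ccn1, Amotl2, Ajuba, Epha2 and Id3), against 14.7% of all 32851 promoters of that length and 12.5% of the 13991 promoters of genes tested. The motifs were chosen after the risers were known, so this is a description and no test was made. Capitals mark a match, which here always reads CATTCC, the complement strand of the hexamer, except for 1 cyclic AMP response element (TGACGTCA) in Epha2.
Ccn1, chr3:145649936-145650235, minus strand: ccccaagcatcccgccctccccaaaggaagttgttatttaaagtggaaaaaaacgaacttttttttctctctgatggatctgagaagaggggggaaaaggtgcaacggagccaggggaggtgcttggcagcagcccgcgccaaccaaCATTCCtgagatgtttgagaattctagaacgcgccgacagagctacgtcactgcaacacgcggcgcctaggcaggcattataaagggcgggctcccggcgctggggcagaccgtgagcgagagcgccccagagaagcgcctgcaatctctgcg
Amotl2, chr9:102717554-102717853, plus strand: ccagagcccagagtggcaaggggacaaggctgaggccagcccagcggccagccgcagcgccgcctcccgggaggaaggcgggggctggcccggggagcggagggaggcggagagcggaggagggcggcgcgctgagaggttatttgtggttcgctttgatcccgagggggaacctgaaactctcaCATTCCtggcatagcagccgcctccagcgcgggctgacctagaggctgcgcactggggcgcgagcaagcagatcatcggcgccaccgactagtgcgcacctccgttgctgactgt
Ajuba, chr14:54577612-54577911, minus strand: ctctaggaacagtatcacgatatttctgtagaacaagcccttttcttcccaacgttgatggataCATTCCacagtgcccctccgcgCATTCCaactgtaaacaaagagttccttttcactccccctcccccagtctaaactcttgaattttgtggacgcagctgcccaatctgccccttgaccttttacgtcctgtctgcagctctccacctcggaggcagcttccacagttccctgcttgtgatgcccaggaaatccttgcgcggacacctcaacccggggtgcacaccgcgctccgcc
Epha2, chr4:141300971-141301270, plus strand: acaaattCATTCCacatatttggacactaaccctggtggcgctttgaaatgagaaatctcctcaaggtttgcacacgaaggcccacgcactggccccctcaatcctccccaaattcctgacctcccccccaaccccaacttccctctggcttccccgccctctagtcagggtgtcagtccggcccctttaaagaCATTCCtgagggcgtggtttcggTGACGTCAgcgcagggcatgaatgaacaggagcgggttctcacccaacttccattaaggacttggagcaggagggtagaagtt

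The hexamer began at −103 from the start in Ccn1, at −65 in Amotl2, at −203 in Id3, at −186 and −164 in Ajuba, and at −243 and −56 in Epha2. The start used for Amotl2 is an internal one. The whole stretch shown, with its hexamer, lies inside the gene, which spans 102717091 to 102733418. In Ccn1 and in Amotl2, as at −56 in Epha2, the letters around it spell CATTCCTG. No promoter of a riser held the AP-1 site in the form TGANTCA (7.81% of all promoters, 4.84% of those of genes tested). Other forms of the site were not searched, and TGACATCA in the Jun promoter cannot match this one. A CArG box, the element that serum response factor binds, was also not found (1.63% of all promoters, 1.29% of those of genes tested). With 9 promoters, the absence of motifs this rare says little. A STAT site (TTCNNNGAA, 8.30%) was found in Socs3 alone, at −154, and the cyclic AMP response element (1.79%) in Epha2 alone. The Socs3 stretch (117969317 to 117969616) also belongs to an internal start, as the gene spans 117966079 to 117970336. These motifs were searched on both strands and do not overlap in these 9 promoters.

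Cytokine and morphogen targets gave 1 call each, beside 0.119% of all genes called higher. Socs3, the inhibitor that LIF signalling induces through STAT3, had 172 (A) and 174 (B) CPM in treated cells, against 143 (A) and 146 (B) CPM in untreated cells. Replicates were close and the groups apart (log2 change 0.26, SE 0.050, adjusted p = 0.00435), and it was the single call among 24 genes of LIF and cytokine feedback (median 0.05). The call was lost without either treated replicate. Id3, a BMP target that blocks differentiation factors, had 42.1 (A) and 49.5 (B) CPM in treated cells, against 36.3 (A) and 35.7 (B) CPM in untreated cells. Its log2 change of 0.34 (SE 0.077, adjusted p = 0.0301) was the single call among 23 BMP, Nodal and Notch targets (median 0.03) and was lost without treated replicate B. The Notch effector gene Hes1 had 50.4 (A) and 53 (B) CPM in treated cells, against 48.4 (A) and 42.5 (B) CPM in untreated cells and was not called (0.18, adjusted p = 0.905).

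Further protein-coding risers belong to none of the lists and, apart from Zfp819, were picked out after their values were seen. Zfp819, a zinc finger gene, had 17.8 (A) and 20.4 (B) CPM in treated cells, against 12.96 (A) and 13.6 (B) CPM in untreated cells (log2 change 0.52, SE 0.115, adjusted p = 0.0258), a call lost without untreated replicate A or treated replicate B. Epha2, an ephrin receptor tyrosine kinase gene, had 152 (A) and 139 (B) CPM in treated cells, against 113 (A) and 118 (B) CPM in untreated cells (0.34, SE 0.054, adjusted p = 1.49e-04), a call lost without treated replicate A. Both genes were higher in both treated libraries. So were the endosomal trafficking gene Heatr5b (0.30, adjusted p = 0.0301) and the actin-binding gene Enc1 (0.26, adjusted p = 0.0258), each of which was called only without untreated replicate B among the 4 fits that leave out a library.

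Many of the risers were short genes, a property the test did not use. The 16 protein-coding risers spanned a median of 4.64 kb of genome, with a range of 1.57 to 82.5 kb, against a median of 23.4 kb for the 12684 protein-coding genes tested. A span under 5 kb was found in 8 of the 16, against 11.9% of the protein-coding genes tested. In level they were ordinary, with average log2 CPM from 2.26 to 7.38 over all 19.

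Non-coding RNAs gave 1 call among 1063 long non-coding RNAs tested (0.0941%, below the 0.163% of all genes). Together these 1063 and the untested ones took 0.393% to 0.405% of the counts. Neat1 (chromosome 19, 5824708 to 5845480), the architectural RNA of nuclear paraspeckles, had 38.9 (A) and 37.8 (B) CPM in treated cells, against 28.8 (A) and 29.0 (B) CPM in untreated cells. The replicates agreed closely and the groups were apart (log2 change 0.41, SE 0.079, adjusted p = 0.00432). The call was lost without treated replicate A and in DESeq2. Malat1, its neighbour on the same chromosome and a speckle RNA, had 135 (A) and 152 (B) CPM in treated cells, against 164 (A) and 148 (B) CPM in untreated cells (−0.12, adjusted p = 0.939). Its groups overlapped. The 40 nuclear and regulatory long non-coding RNAs of the list had a median log2 change of 0.00, and the 101 small RNA genes tested gave no call.

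Pseudogenes, 2081 of them tested, gave 3 calls (0.144%, near the 0.163% of all genes), and these were the 3 largest changes of all called genes. Rps19-ps3 (chromosome 4, 147821777 to 147822202), a transcribed pseudogene of the ribosomal protein gene Rps19, had 39.6 (A) and 34.8 (B) CPM in treated cells, against 6.34 (A) and 6.56 (B) CPM in untreated cells. The rise was 5.78-fold (log2 change 2.53, SE 0.112, adjusted p = 8.06e-26) and stayed between 2.43 and 2.62 with any library left out. Its parent Rps19 had 134 (A) and 139 (B) CPM in treated cells, against 142 (A) and 138 (B) CPM in untreated cells (−0.03), and another copy, Rps19-ps6, changed by 0.05.

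Gm8655 had 5.31 (A) and 7.71 (B) CPM in treated cells, against 3.33 (A) and 3.05 (B) CPM in untreated cells (log2 change 1.01, adjusted p = 0.00826). Its call was lost without treated replicate B and in DESeq2 (adjusted p = 0.456). Gm18899 had 0.25 (A) and 0.23 (B) CPM in treated cells, against 1.07 (A) and 2.19 (B) CPM in untreated cells (−2.71, adjusted p = 0.00656). That call was lost without untreated replicate B, without treated replicate A and in DESeq2, and the gene fell below the stricter filter on low counts. No source used here says how reads that fit several near-identical copies were counted, so the level of any one pseudogene is uncertain. Single-library jumps were found in this class. Among genes with an average log2 CPM above 2, the 5 with a log2 change beyond 0.75 that were not called were all pseudogenes. Gm44419 was among them without such a jump, with 4.56 (A) and 9.04 (B) CPM in treated cells, against 15.8 (A) and 13.6 (B) CPM in untreated cells. Gm6440 had 2.05 (A) and 2.19 (B) CPM in treated cells, against 2.43 (A) and 60.6 (B) CPM in untreated cells. Gm12583 had 39.1 (A) and 7.19 (B) CPM in treated cells, against 9.18 (A) and 9.98 (B) CPM in untreated cells. Rps19-ps3 differed from Gm6440 and Gm12583 in that both libraries of each group were close.

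Of the 7 fallers, 2 were mitochondrially encoded, among 13 such mRNAs tested, beside 0.0439% of all genes called lower. ND6, a complex I subunit and the single protein gene on the light strand of the mitochondrial genome, had 102 (A) and 113 (B) CPM in treated cells, against 128 (A) and 126 (B) CPM in untreated cells (log2 change −0.24, SE 0.056, adjusted p = 0.0461). COX2, a cytochrome oxidase subunit, had 13.98 (A) and 12.8 (B) CPM in treated cells, against 20.3 (A) and 18.7 (B) CPM in untreated cells (−0.54, SE 0.113, adjusted p = 0.0148). The other 11 mitochondrial mRNAs were not called, and the median over the 13 was −0.12. COX1 had 3432 (A) and 4209 (B) CPM in treated cells, against 3866 (A) and 4871 (B) CPM in untreated cells, with overlapping groups. The COX2 row lay far below that of COX1. How reads that fit several near-identical copies were counted is not stated, so the level and the fall of COX2 are uncertain. Mitochondrial counts made up 0.823% (A) and 0.997% (B) of treated libraries, against 0.882% (A) and 1.12% (B) of untreated ones, so they differed between replicates as much as between groups. The ND6 call was lost under 2 other scalings and without either treated replicate. ND6 lies opposite the other genes, and whether counting used strand is not stated.

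The remaining fallers were nuclear genes at low counts. Zbtb14, a zinc finger repressor gene, had 20.2 (A) and 17.03 (B) CPM in treated cells, against 24.5 (A) and 26.2 (B) CPM in untreated cells (log2 change −0.44, SE 0.100, adjusted p = 0.0337). Gpc2, which encodes a cell-surface heparan sulfate proteoglycan, had 7.36 (A) and 7.37 (B) CPM in treated cells, against 11.4 (A) and 11.5 (B) CPM in untreated cells (−0.63, SE 0.143, adjusted p = 0.0301). Tspo, an outer mitochondrial membrane protein gene that was named after its values were seen, had 5.52 (A) and 5.87 (B) CPM in treated cells, against 9.88 (A) and 8.75 (B) CPM in untreated cells (−0.71, adjusted p = 0.0258). Ddx39b, an mRNA export helicase gene, had 6.11 (A) and 9.32 (B) CPM in treated cells, against 11.4 (A) and 14.1 (B) CPM in untreated cells (−0.75, adjusted p = 0.0248). Zbtb14 and Ddx39b were each lost in 2 of the 4 fits that leave out a library, and Gpc2 and Tspo in 3. DESeq2 called none of the 7 fallers, and no other gene lower. The Ddx39b row held 310 to 438 CPM in the wild-type footprint libraries, far above its RNA row, so its RNA level is uncertain.

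Lists tied to translation termination and its surveillance gave no call in either direction. As 0.163% of all genes tested were called, the absence of calls in lists of this size says little. None of 30 snoRNA host transcripts was called, and their median log2 change was −0.01, with 27 of the 30 intervals within 1.5-fold. These hosts are short-lived RNAs that nonsense-mediated decay normally removes. Gas5 had 11.01 (A) and 11.97 (B) CPM in treated cells, against 10.6 (A) and 11.7 (B) CPM in untreated cells (0.04, 95% interval −0.22 to 0.31), and Snhg12 changed by −0.06 (−0.33 to 0.20). Both had overlapping groups. Among 45 splicing regulators whose poison exons are decay substrates the median was 0.00, and all 45 intervals lay within 1.5-fold. Gene counts do not separate the isoforms that carry those exons.

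Protein-coding mRNAs known as decay-sensitive, 29 of which were tested, had a median log2 change of 0.06 and no call. At an unadjusted p under 0.05, which 5.13% of all genes tested passed in either direction, 7 of the 29 lay above 0 and 1 below, among them Gadd45b (0.27, adjusted p = 0.496), Gadd45a (0.34, adjusted p = 0.929) and the decay factor gene Smg5 (0.10, adjusted p = 0.939). Several of these are also stress-induced genes, and Gadd45b is on the immediate early list too. The 22 NMD factors, 16 termination and recycling factors, 32 rescue and quality control genes and 48 mRNA decay and deadenylation factors gave no call, with medians between −0.01 and 0.00.

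**Figure D3:**
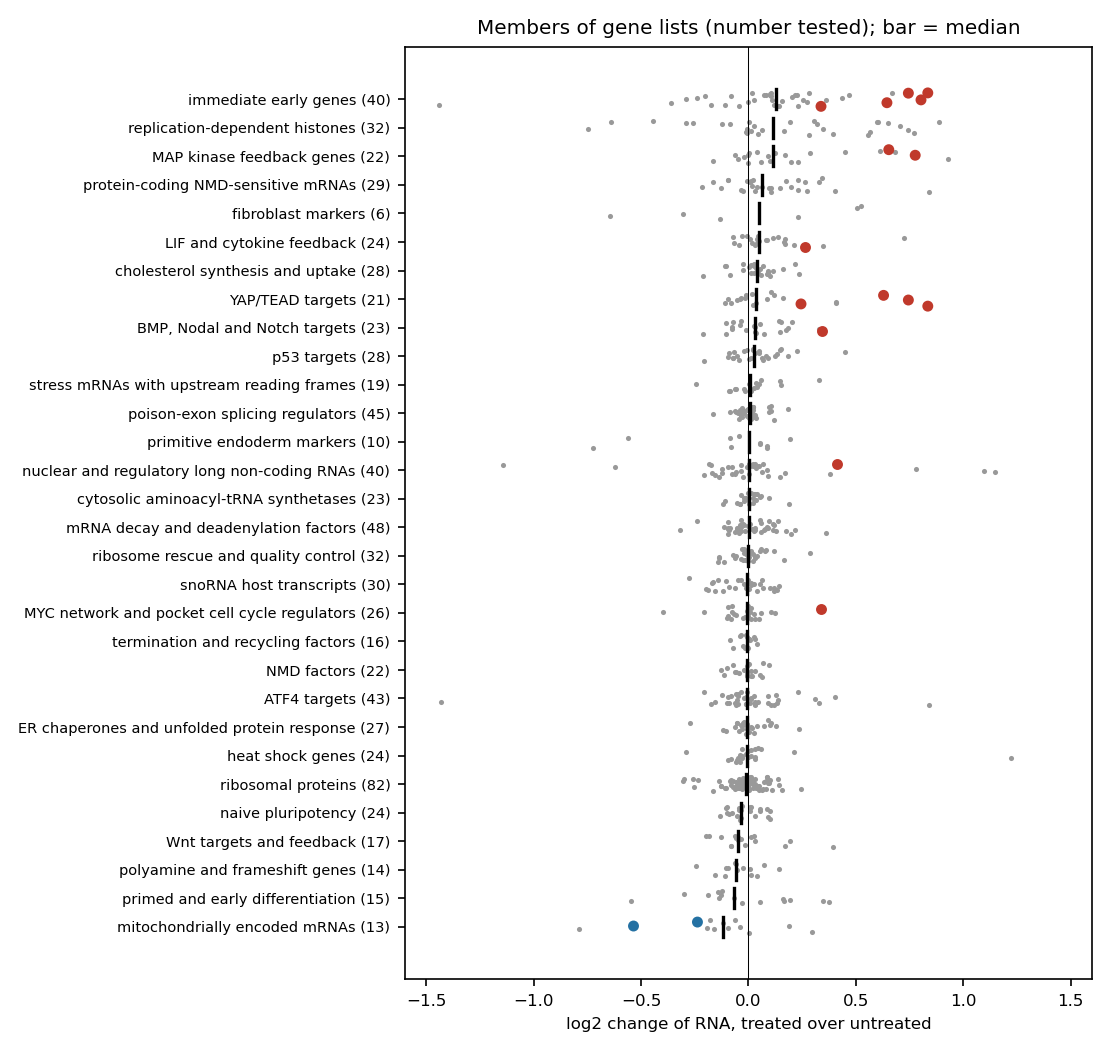
Log2 change of RNA, treated over untreated, for every tested member of the gene lists with at least 4 tested members, ordered by median (black bar), with called genes as large red (higher) or blue (lower) points. The immediate early, MAP kinase feedback and YAP/TEAD lists hold most red points, while the medians of the termination, rescue and NMD factor lists lie at −0.01 to 0.00.

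Genes of the stress response that follows phosphorylation of eIF2 gave no call in RNA, beside 0.163% of all genes called. Atf4, the main transcription factor of that response, had 306 (A) and 306 (B) CPM in treated cells, against 291 (A) and 263 (B) CPM in untreated cells. The treated libraries were both above the untreated ones by a little, and the log2 change was 0.14 (95% interval 0.05 to 0.24, adjusted p = 0.622). Without untreated replicate A the change was 0.22 and was called (adjusted p = 1.62e-04). Ddit3 (CHOP) had 6.86 (A) and 6.91 (B) CPM in treated cells, against 5.23 (A) and 5.74 (B) CPM in untreated cells (0.33, interval −0.01 to 0.67). Asns, the asparagine synthetase gene that ATF4 induces, had a change of 0.03 (−0.05 to 0.12). Of 43 ATF4 targets tested none was called, with a median of −0.01, and the same held for 19 stress mRNAs with upstream reading frames (0.01) and 23 cytosolic aminoacyl-tRNA synthetase genes (0.00).

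No call was made among 82 ribosomal protein genes (median −0.01), 28 p53 targets (0.02), 24 heat shock genes (−0.01), 27 ER chaperone and unfolded protein response genes (−0.01), 28 cholesterol genes (0.04), 17 Wnt targets (−0.05) or 14 polyamine and frameshift genes (−0.06). Over all genes tested 0.163% were called, so lists of this size would mostly hold no call. Of 92 replication-dependent histone genes listed, 66 were matched and 32 tested, with no call. Their mRNAs lack poly(A) tails, and 4 of the 32 intervals lay within 1.5-fold, so this library type says little about them. Among markers of other states, the primed (15 tested), primitive endoderm (10), fibroblast (6) and two-cell-like (1) lists gave no call.

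The RNA calls were set beside ribosome footprints of the same treatment, counted in separate libraries. Of 12267 genes tested for footprints in wild-type cells, 361 (2.94%) were called higher and 238 lower (4.88% in all), in a fit in which all 8 footprint libraries share the spread. With the 4 wild-type footprint libraries fitted alone, 19 were called. Of the 16 RNA risers tested for footprints, 4 were called higher in footprints and none lower, and 13 had a footprint change above 0. Id3, Myc and Zfp819 were among these 4.

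In Id3 the footprint change was larger than the RNA change. Its footprints were 55.5 (A) and 38.1 (B) CPM in treated cells, against 19.98 (A) and 16.7 (B) CPM in untreated cells (footprint log2 change 1.34, adjusted p = 0.0127), beside an RNA change of 0.34. Myc had 8.36 (A) and 8.72 (B) footprint CPM in treated cells, against 3.00 (A) and 4.02 (B) CPM in untreated cells (1.29, adjusted p = 0.0382), beside an RNA change of 0.34. For Zfp819 the footprint log2 change was 0.78 (adjusted p = 0.0229), against an RNA change of 0.52.

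The strongest protein-coding RNA risers were not called in footprints. Ccn2 footprints were 40.2 (A) and 47.9 (B) CPM in treated cells, against 37.9 (A) and 53.2 (B) CPM in untreated cells (footprint log2 change −0.04, SE 0.168). For Amotl2 the footprint change was 0.23 (SE 0.145), for Ccn1 0.37 (SE 0.244) and for Junb 0.28 (SE 0.179). For Jun it was 0.69 (SE 0.299), near its RNA change of 0.80. Jun had 3.58 (A) and 3.72 (B) footprint CPM in treated cells, against 2.30 (A) and 2.23 (B) CPM in untreated cells. In each of these genes the footprint SE was larger than the RNA SE, so a change of the same size could be called in RNA alone. Spry4 had only 1.23 to 2.12 footprint CPM per library. Socs3 was the riser with the lowest footprint change, with 37.2 (A) and 20.3 (B) footprint CPM in treated cells, against 53.3 (A) and 48.5 (B) CPM in untreated cells (−0.86, adjusted p = 0.0521). The difference between the RNA and the footprint change was not tested here. None of the 4 fallers tested for footprints was called.

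**Figure D4:**
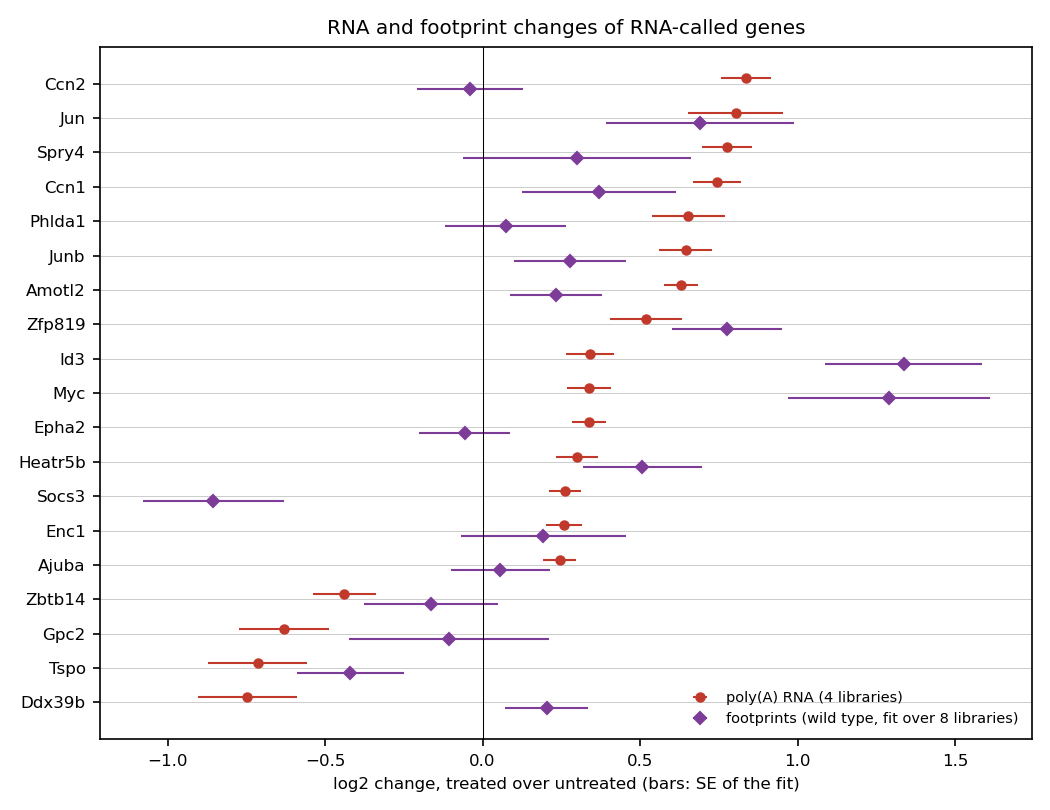
Log2 change, treated over untreated, of poly(A) RNA (red circles) and wild-type footprints (purple diamonds) for 19 of the 20 RNA-called genes tested in both, with bars of 1 SE of the fit. The footprint change of Id3 and Myc lies to the right of the RNA change, and that of Ccn2, Epha2 and Socs3 to the left.

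The genes called for footprints were also looked up in the RNA. Of 583 genes called for footprints and tested for RNA, 555 had an RNA interval within 1.5-fold. The 346 with higher footprints had a median RNA log2 change of 0.03 and held 4 RNA calls, all higher, beside 0.119% of all genes called higher in RNA. The 237 with lower footprints had a median of −0.00 and held none. For Atf4 the footprint log2 change was 2.02 (adjusted p = 1.21e-04), beside 0.14 for RNA, and for Ddit3 it was 2.38 (adjusted p = 0.0177), beside 0.33 for RNA.

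**Figure D5:**
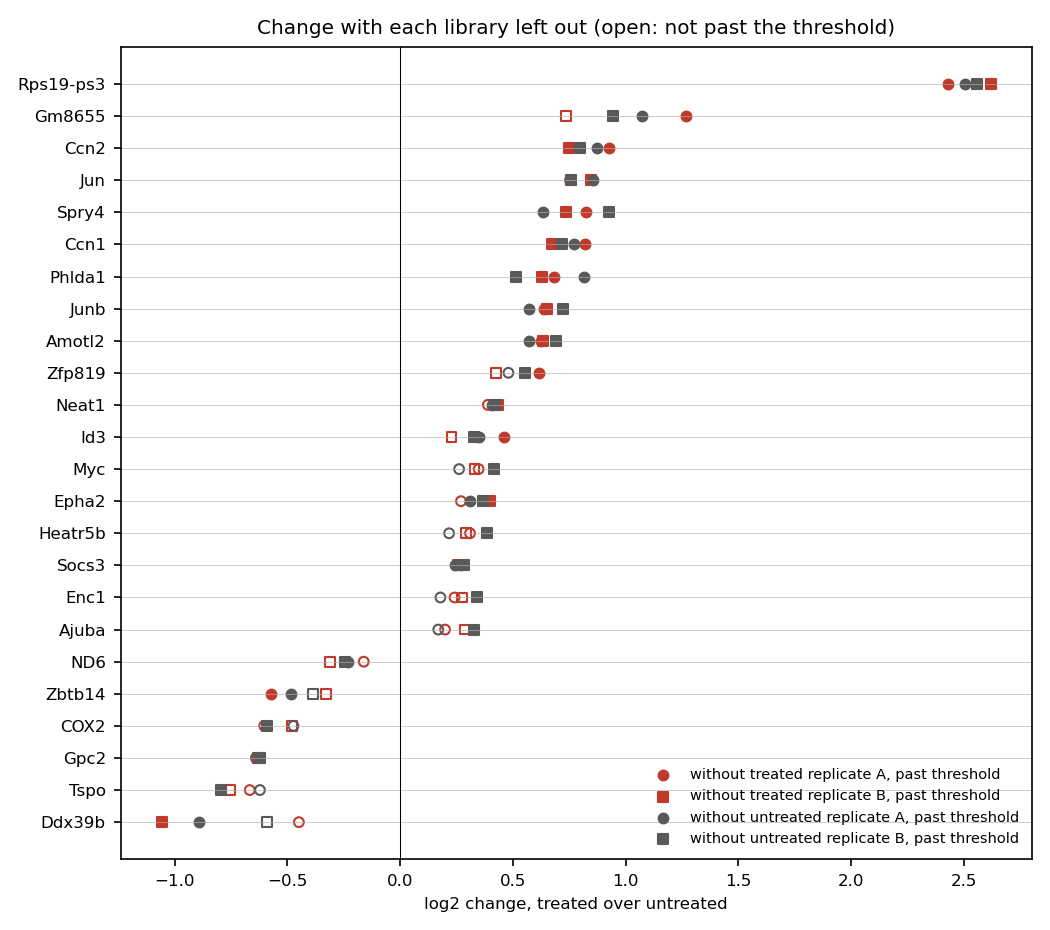
Log2 change of called genes, treated over untreated, refitted with each library left out (red: a treated library left out, grey: an untreated one; circles replicate A, squares replicate B; open symbols did not pass the threshold). Gm18899, whose change stayed between −3.14 and −2.12, is not drawn. Rps19-ps3, Ccn2, Spry4, Ccn1, Phlda1, Junb and Amotl2 have 4 filled symbols.

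The calls differed in how far they rested on single libraries. Called in each of the 4 fits that leave out a library were 7 genes: Rps19-ps3, Ccn1, Ccn2, Spry4, Phlda1, Junb and Amotl2. The lone library of a reduced group was assumed there to vary like the other group. No called gene turned direction in any of these fits. Myc, Heatr5b, Enc1, Ajuba, COX2, Gpc2 and Tspo were called in 1 of the 4.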

How the data were processed

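Poly(A) RNA of 4 libraries and ribosome footprints of 8 libraries were deposited by the authors as raw counts per gene symbol. Per the submitters' processing notes, CASAVA 1.4, cutadapt, HISAT2 2.1.0 and mm10 were used; no source used here names the counting tool, strand use or the treatment of multiply mapping reads. Counts were tested in R 4.3.3 with edgeR 4.0.16 (filterByExpr at a minimum count of 10, TMM, robust quasi-likelihood F test, two-sided, Benjamini-Hochberg over all genes), checked on simulated data. SEs were taken as the change over the square root of F, and intervals are 95%. The RNA fit had 2 residual degrees of freedom. Footprints were fitted over all 8 libraries. p-values set each change against the spread between these replicates, which the fit partly shares across genes. All 49997 RNA symbols matched RefSeq GRCm38.p6, and 22368 had no counts.

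The labels name no batch or day that the replicate letters share, so the main fit did not pair the libraries. The A minus B deviations of treated and untreated cells correlated at −0.0023 across 9796 genes. That value includes counting noise and does not show that the letters are unrelated. Mitochondrial counts, for example, took a larger share in replicate B than in A in both groups. Alternatives were a replicate block, DESeq2 1.42.0, voom of limma 3.58.1, other scalings and filters, and leaving out each library.

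Named were up to 10 risers and 10 fallers with the largest change (average log2 CPM of at least 3, no overlap, no predicted genes, pseudogenes or mitochondrial RNAs), up to 5 non-coding in each direction, up to 4 called members per list or, with none called, its 2 most abundant, and 14 fixed genes. Members and lists were chosen with earlier results of these data known. Lists are described by counts and medians, with no set test. A called gene is counted but not reported here. Epha2, Heatr5b, Enc1, Tspo, Gm18899 and the uncalled Dusp5, Dusp6, Spry2, Lats2, Srf, Klf6, Plk2, Cebpd, Hes1, Rps19, Rps19-ps6, COX1, Yap1, Wwtr1, Tead1, Tead2, Tead4, Axl, F3, Gadd45a, Gadd45b, Gm6440, Gm12583 and Gm44419 fall outside this rule and were named after their values were seen.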

Additional observations from a re-analysis of the deposited data

How the results depend on the processing

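The count of 26 called genes was 16 with the replicate block (13 higher, 3 lower; 15 of the 26 among them) and 8 with DESeq2 (8 higher, 0 lower; 197 at an unadjusted p under 0.05). Over the 4 fits that each leave out a library it ran from 14 to 267, and the 267 without untreated replicate B held 23 of the 26. Other scalings, filters, no robust spread and voom gave 23 to 34. The cause was not tested. The footprint count of 599 was 19 with the 4 wild-type libraries alone, a fit with fewer samples. No named gene that was called in either fit changed direction in any of the 12 alternatives. Among those lost with the block were Zfp819, Id3, Myc, Heatr5b, Enc1, Ajuba, ND6, Zbtb14, Gpc2 and Tspo. DESeq2 kept Rps19-ps3, Ccn1, Ccn2, Spry4, Junb, Amotl2, Epha2 and Socs3. The 6 genes called in all 12 alternatives were these without Epha2 and Socs3. Of 372 list medians recomputed, 371 moved by less than the median SE of the list's single genes. The median of YAP/TEAD targets was 0.13 without treated replicate B. That limit is the error of a single gene, so smaller shifts of a median were not counted.

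With 2 libraries a group, changes under 1.5-fold in genes below an average log2 CPM of 3 were mostly not resolved. The intervals cover replicate and counting error in these libraries alone.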
